A study of Mus musculus with 4 samples.

Results

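The cells described here were T cells of pancreatic islets in which a beta chain of the T-cell receptor was read but no alpha chain. A cell was counted as TRB-only when its barcode was flagged as a cell and it carried exactly 1 TRB contig and 0 TRA contigs among those flagged high-confidence, full-length and productive. The rule found 1370 such cells among 13345 called cells. They were set against 11035 paired cells, which had exactly 1 TRB and at least 1 TRA by the same flags. The other called cells were 652 with over 1 TRB and 288 with TRA but no TRB.

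Receptors had been read from 4 libraries. Tet2KO NOD 1 and Tet2KO NOD 2 came from NOD mice that are Tet2-/-, where Tet2 encodes a dioxygenase that acts on methylated cytosines; the allele came from B6 breeders and had been backcrossed to NOD for over 14 generations. NOD 1 and NOD 2 came from NOD mice, a strain that develops autoimmune diabetes, labelled WT for genotype. No other allele or agent was named for either group. Each library was made from the pooled islets of 4 to 6 mice, so mice within a pool could not be told apart. The exact permutation and sign-flip p-values below rest on the spread between pools. The edgeR p-values of TRB segments rest mainly on the counting error of distinct TRB. The design text gives the age as 10 to 13 weeks, while the protocol counts 10 to 13 weeks after an event written as BTM and names donors for bone marrow transplant, so the age and any transplant remained unsettled.

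A developing T cell in the thymus rearranges its TRB genes first and tests the beta chain as part of the pre-T-cell receptor, before it rearranges TRA. The TRA locus can go on joining upstream V to downstream J segments, so a cell may hold an unproductive alpha rearrangement beside a productive one. The delta segments lie inside the TRA locus and are usually deleted when TRA rearranges. A mature alpha-beta T cell makes both chains, and a single-cell assay reads a chain only when enough of its mRNA is captured and assembled.

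The contig tables held 114106599, 85137263, 220516119 and 140478435 reads in Tet2KO NOD 1, Tet2KO NOD 2, NOD 1 and NOD 2, in 1957, 1664, 6835 and 2889 called cells. No called cell of either class carried a TRG or an immunoglobulin contig in the tables used here, so these markers separate nothing. TRD contigs were present in 75 TRB-only and 135 paired cells and are described below. Of the barcodes, 81 were called in over 1 library, 18 of them with a TRB-only cell, and 2 had the same TRB in both libraries. Without these barcodes the shares, UMI difference and overlap kept their direction.

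TRB-only cells made up 12.2% of the called cells of Tet2KO NOD 1 (239 cells, Wilson 95% interval 10.8% to 13.7%) and 10.3% of those of Tet2KO NOD 2 (172 cells, 8.96% to 11.9%). In NOD 1 they made up 10.6% (726 cells, 9.91% to 11.4%) and in NOD 2 8.07% (233 cells, 7.13% to 9.11%). Tet2KO NOD 1 was the highest and NOD 2 the lowest, and the other pools lay between them with overlapping intervals. The means were 11.3% ± 1.33 in Tet2KO NOD and 9.34% ± 1.81 in NOD (SD, n = 2 each), a difference of 1.93 percentage points (exact two-sided permutation p = 0.667). It was 0.65 points without NOD 2, 0.99 without Tet2KO NOD 1, 2.87 without Tet2KO NOD 2 and 3.21 without NOD 1. The smallest p that 2 against 2 libraries allow is 0.333, so no genotype difference of a single value could pass 0.05. Intervals cover counting error only.

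A TRB-only cell carried fewer TRB molecules than a paired cell of its library. A UMI (unique molecular identifier) tags each captured molecule, and the median TRB-only cell had 9 and 8 TRB UMIs in Tet2KO NOD 1 and 2 and 7 and 9 in NOD 1 and 2. The median paired cell had 10 and 11 in Tet2KO NOD 1 and 2 and 11 and 13 in NOD 1 and 2. The TRB-only median was thus the lower in each of the 4 libraries, and the ranges between the quartiles overlapped in each. Mean log2 TRB UMIs averaged 2.99 ± 0.13 in TRB-only cells and 3.46 ± 0.20 in paired cells (SD, n = 4). The difference of -0.47 ± 0.16 on the log2 scale, or 0.723 times the geometric mean, gave an exact sign-flip p = 0.125, the smallest that 4 libraries allow. The median paired cell had 6 TRA UMIs in each library, fewer than its TRB UMIs.

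**Figure D1:**
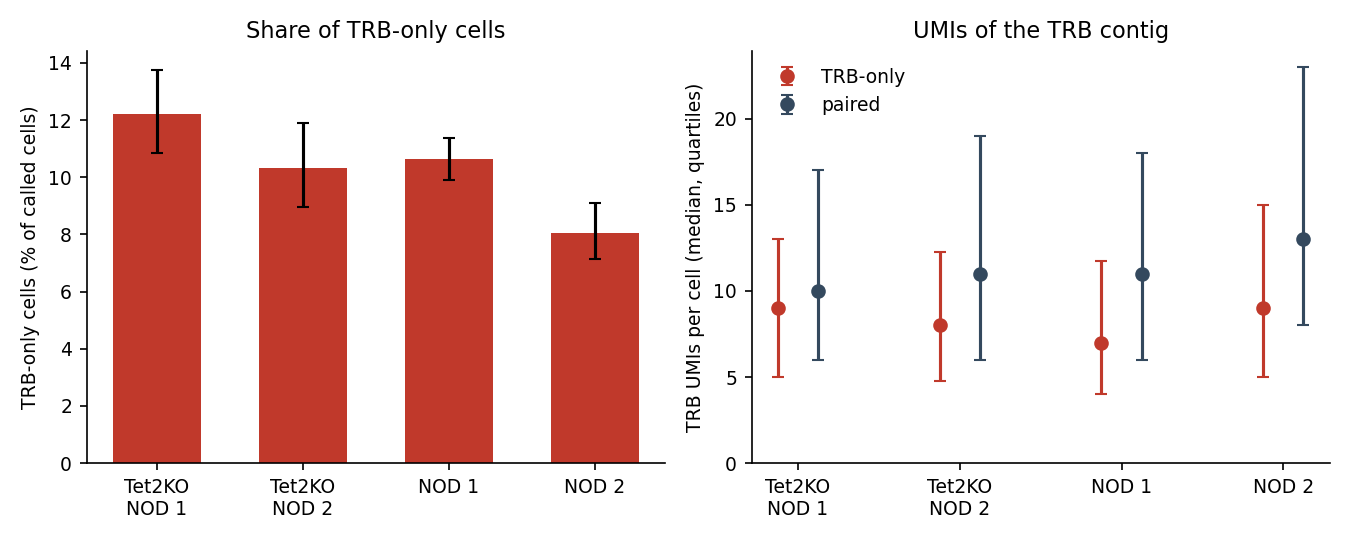
Left, the share of called cells that were TRB-only in each library, with Wilson 95% intervals; Tet2KO NOD 1 stood highest at 12.2% and NOD 2 lowest at 8.07%. Right, TRB UMIs per cell as the median with quartiles for TRB-only and paired cells; the TRB-only median was below the paired median in each library.

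The share of cells without a TRA was lowest where the most TRB molecules were read. Among cells with exactly 1 TRB and 32 or more TRB UMIs, 1.44% and 4.05% lacked a TRA in Tet2KO NOD 1 and 2, and 2.42% and 3.02% in NOD 1 and 2. With 1 to 3 TRB UMIs, 14.7% and 20.1% lacked it in Tet2KO NOD 1 and 2, and 17.8% and 14.6% in NOD 1 and 2. The fewest TRB UMIs were 2 in a TRB-only cell and 1 in a paired cell of each library. Cells of this bin with 1 TRB UMI were thus all paired, which lowers its share. The decline was not even: in Tet2KO NOD 1 the bin of 8 to 15 UMIs held 16.2% (104 of 640 cells), above its neighbours. When each library was standardised to the pooled distribution of TRB UMIs, 12.6% and 11.0% lacked a TRA in Tet2KO NOD 1 and 2 and 11.3% and 9.46% in NOD 1 and 2.

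**Figure D2:**
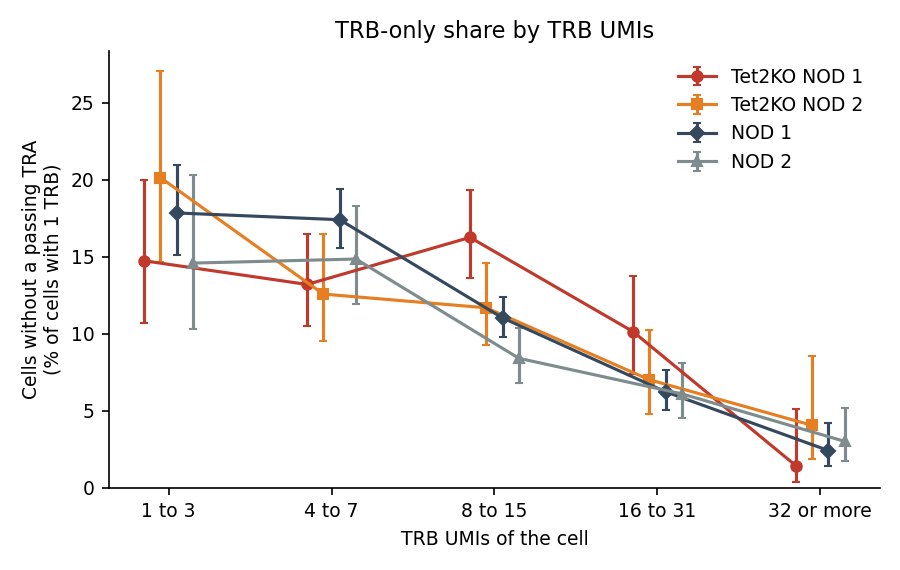
The share of cells with exactly 1 TRB that had no passing TRA, by the TRB UMIs of the cell, for the 4 libraries with Wilson 95% intervals. At 32 or more UMIs the share lay between 1.44% and 4.05%, and at 1 to 3 UMIs between 14.6% and 20.1%.

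The next comparison asked whether TRB-only cells belonged to clones that were also seen with an alpha chain. A TRB was identified by its V segment, J segment and CDR3 nucleotides, the CDR3 being the loop formed where the segments join. In Tet2KO NOD 1, 91 of 239 TRB-only cells (38.1%) had the TRB of a paired cell of the same library, and in Tet2KO NOD 2 60 of 172 (34.9%). In NOD 1 it was 245 of 726 (33.7%) and in NOD 2 63 of 233 (27.0%). In all, 459 TRB-only cells matched a paired cell and 911 did not. Of the matched cells, 252 also carried the clonotype number that the authors' files gave to a paired cell with that TRB. By library these were 69 of 91 and 54 of 60 in Tet2KO NOD 1 and 2 and 85 of 245 and 44 of 63 in NOD 1 and 2. The share was thus lowest in NOD 1, at 34.7%.

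Paired cells found their TRB in another paired cell more often, at 56.4% and 41.6% in Tet2KO NOD 1 and 2 and 46.1% and 42.4% in NOD 1 and 2. The share was lower for TRB-only cells in each of the 4 libraries, with means of 33.4% ± 4.64 for TRB-only cells and 46.6% ± 6.79 for paired cells and a difference of -13.2 ± 4.94 percentage points (SD, n = 4, exact sign-flip p = 0.125, the smallest possible). This direction was found when cells were counted. When each distinct TRB was counted once, the difference was 8.14 percentage points, with TRB-only above paired. The shares are unlike in that count. A TRB of TRB-only cells needed at least 1 paired cell, while a TRB of paired cells needed more than 1. Nothing is therefore read from the change of sign.

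**Figure D3:**
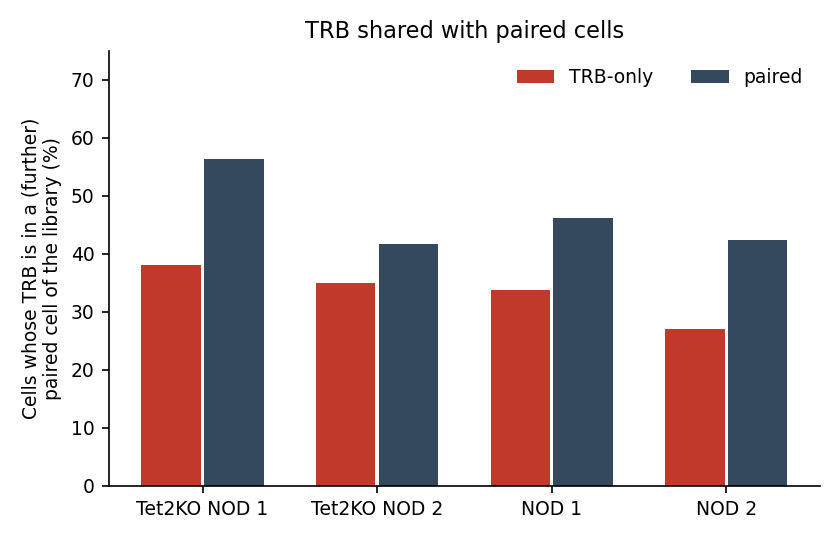
The share of TRB-only cells whose TRB was in a paired cell of the library, beside the share of paired cells whose TRB was in another paired cell. The TRB-only bars run from 27.0% to 38.1% and the paired bars from 41.6% to 56.4%.

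Between genotypes the matched share of TRB-only cells was 36.5% ± 2.26 in Tet2KO NOD and 30.4% ± 4.74 in NOD (SD, n = 2 each). Both Tet2KO NOD pools were above both NOD pools, a difference of 6.09 percentage points with the smallest exact permutation p possible, 0.333. It was 2.73 points without NOD 2, 4.49 without Tet2KO NOD 1, 7.68 without Tet2KO NOD 2 and 9.44 without NOD 1. NOD 1 had more paired cells to match than the other pools. With paired cells thinned to 1392 in each library, the number in the smallest, the matched share was 36.8% and 34.9% in Tet2KO NOD 1 and 2 and 24.0% and 23.8% in NOD 1 and 2, a difference of 11.9 points (exact permutation p = 0.333). The unmatched cells were mostly single: their 911 cells carried 856 distinct TRB, of which 824 were seen in 1 cell, 26 in 2 and 6 in 3 or more.

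The TRB with the most TRB-only cells are shown because their paired cells or their failed contigs name an alpha chain. Capitals mark the CDR3 bases that match neither the end of the germline V nor the germline J segment of the GRCm38 reference, from which NOD alleles may differ. The first 2 are from Tet2KO NOD 1, the next 2 from Tet2KO NOD 2, then 2 from NOD 1 and 2 from NOD 2.
TRBV13-1/TRBJ2-1: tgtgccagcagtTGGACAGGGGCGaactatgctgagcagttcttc
TRBV16/TRBJ2-7: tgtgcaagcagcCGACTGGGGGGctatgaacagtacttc
TRBV31/TRBJ2-5: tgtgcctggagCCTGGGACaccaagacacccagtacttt
TRBV19/TRBJ2-1: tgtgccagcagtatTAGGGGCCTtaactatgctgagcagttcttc
TRBV20/TRBJ1-5: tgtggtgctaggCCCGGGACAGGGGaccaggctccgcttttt
TRBV3/TRBJ1-3: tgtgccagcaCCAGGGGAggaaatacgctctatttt
TRBV19/TRBJ1-1: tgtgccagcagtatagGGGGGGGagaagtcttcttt
TRBV15/TRBJ2-7: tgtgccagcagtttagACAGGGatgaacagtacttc

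The TRBV13-1/TRBJ2-1 receptor of Tet2KO NOD 1 had 17 TRB-only cells and no paired cell. Its cells had a median of 13 TRB UMIs, above the paired median of that library, 10. The other 7 TRB listed were seen in both kinds of cell. The TRBV16/TRBJ2-7 receptor had 9 TRB-only cells of 22 in Tet2KO NOD 1 (40.9%, Wilson 95% interval 23.3% to 61.3%), with a median of 13 TRB UMIs in TRB-only cells and 11 in paired cells. The same TRB had 7 of 14 in NOD 1, where the order was the other way, with 8 TRB UMIs in the median TRB-only cell and 16 in the median paired cell.

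In Tet2KO NOD 2, 6 of 19 cells with the TRBV31/TRBJ2-5 receptor were TRB-only, with 17 TRB UMIs in the median TRB-only cell and 40 in the median paired cell. For TRBV19/TRBJ2-1 it was 5 of 13, with 4 UMIs in TRB-only cells and 13 in paired cells. In NOD 1, 12 of 37 cells with TRBV20/TRBJ1-5 were TRB-only (7.5 UMIs against 16), and 12 of 30 with TRBV3/TRBJ1-3 (6 against 12.5). In these the TRB-only cells had the lower median. The same held in NOD 2, where TRBV19/TRBJ1-1 had 6 TRB-only cells of 42 (10 UMIs against 23.5) and TRBV15/TRBJ2-7 5 of 22 (17 against 36).

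Large clones differed in how many of their cells lacked a TRA. Among 111 TRB of 10 or more cells in a library, 47 had no TRB-only cell, the median was 4.76% TRB-only and the upper quartile 14.3%. In 12 of them 30% or more of the cells were TRB-only. These clones were singled out after their values were seen, and they are given as a description.

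TRB of TRB-only cells that occurred in over 1 library numbered 26. The 3 with the most cells were TRBV31/TRBJ2-1, TRBV19/TRBJ2-5 and the TRBV16/TRBJ2-7 receptor printed above. The CDR3 of the first 2 are shown because each was found in 2 pools. Capitals were marked against germline V and J only. They can therefore include bases of the germline D segment that lies between V and J in a TRB.
TRBV31/TRBJ2-1: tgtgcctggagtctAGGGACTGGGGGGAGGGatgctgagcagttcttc
TRBV19/TRBJ2-5: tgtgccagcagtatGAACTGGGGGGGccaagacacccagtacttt
TRBV31/TRBJ2-1 had 1 TRB-only cell of 2 in Tet2KO NOD 2 and 1 of 42 in NOD 2. TRBV19/TRBJ2-5 had 0 of 1 in Tet2KO NOD 1 and 2 of 40 in NOD 1. Of these 3 receptors, TRBV16/TRBJ2-7 had the most TRB-only cells, and the other two lay almost wholly in 1 pool.

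Each of the 3 was read with an identical TRA in both of its pools. The TRBV16/TRBJ2-7 receptor had the same 39 CDR3 bases, 11 of them outside germline V and J, with D not compared. Its paired cells had a TRAV2-TRAJ7 chain in Tet2KO NOD 1 and in NOD 1. The chain was TRAV3-1-TRAJ52 for TRBV31/TRBJ2-1 and TRAV9-1-TRAJ53 for TRBV19/TRBJ2-5. The latter receptor had 2 passing chains in NOD 1, TRAV9-1-TRAJ53 in 35 paired cells and TRAV9-1-TRAJ56 in 37. Its 1 paired cell of Tet2KO NOD 1 was read with TRAV9-1-TRAJ53 and not with TRAV9-1-TRAJ56. None of the 44, 41 and 36 cells of TRBV31/TRBJ2-1, TRBV19/TRBJ2-5 and TRBV16/TRBJ2-7 had a barcode called in over 1 library. Whether the libraries share cells or material was not tested, so their independence is not settled. In all, 68 TRB-only and 484 paired cells had a TRB found in over 1 library. Without them the difference in TRB-only share was 1.90 percentage points between genotypes and the UMI difference -0.46 on the log2 scale. The difference in matched share was then -14.1 points between TRB-only and paired cells and 6.50 between genotypes. These settings were chosen after seeing the data.

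Many TRB-only cells did hold an alpha contig that had failed a flag. A TRA contig that was not high-confidence, full-length and productive at once was present in 40.6% and 38.4% of TRB-only cells of Tet2KO NOD 1 and 2 and in 39.3% and 47.6% of those of NOD 1 and 2. In paired cells, which carried it beside a passing TRA, it was present in 29.4% and 28.6% in Tet2KO NOD 1 and 2 and in 27.5% and 31.4% in NOD 1 and 2. The share was higher in TRB-only cells of each of the 4 libraries, by 12.2 ± 2.82 percentage points (SD, n = 4). The rule used these flags and removed passing TRA from TRB-only cells by definition, so this difference and the kinds of failed contig below are a description with no test.

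Full-length is one of the flags that chose the cells. TRA contigs that were not full-length were present in 289 of 1370 TRB-only cells (21.1%) and 672 of 11035 paired cells (6.09%). Full-length nonproductive contigs were present in 328 TRB-only cells (23.9%) and 2531 paired cells (22.9%). Among matched TRB-only cells, 105 had a failed contig with a listed CDR3, and in 66 of these it was the CDR3 of a passing TRA of paired cells with the same TRB. In 727 TRB-only cells (53.1%) there was no contig of the alpha or delta locus at all.

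A few segments recurred among the failed contigs. TRAJ35, a joining segment at chr14:54183774-54183838 on the plus strand of GRCm38, was in 47 TRB-only cells on contigs that were not full-length, all with a listed CDR3, and in 16 paired cells. By library the TRB-only cells numbered 23 and 0 in Tet2KO NOD 1 and 2 and 12 and 12 in NOD 1 and 2. Over all TRB-only and paired cells, 63 of 186 TRAJ35 contigs (33.9%) were not full-length, against 625 of 15758 contigs with any other TRAJ (3.97%), and TRAJ9, at 12.8%, was the next highest. The 47 contigs used 20 V segments and had a median of 6 UMIs.

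Of 6 TRB that had 3 or more TRB-only cells and no paired cell, 4 had a TRAJ35 contig that was not full-length. They are named after their values were seen, except the 3 with the most cells. TRBV13-1/TRBJ2-1 in Tet2KO NOD 1 carried it in 14 of 17 cells, joined to TRAV12N-2. TRBV14/TRBJ2-2 in NOD 2 carried it in 5 of 5, joined to TRAV9-2. TRBV1/TRBJ2-2 in Tet2KO NOD 1 carried it in 4 of 4, joined to TRAV14D-3-DV8, and TRBV1/TRBJ1-6 in Tet2KO NOD 1 in 1 of 3, joined to TRAV3-3.

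The 3 TRB with the most cells of this kind, of which the first is printed above, and the 4 alpha CDR3 are shown, since they differ in V but share the 23 bases at their J end. In the alpha CDR3, capitals again mark bases matching neither germline segment. In the germline TRAJ35 of the GRCm38 reference, from RefSeq, capitals mark the 23 bases found at the end of all 4.
TRBV14/TRBJ2-2: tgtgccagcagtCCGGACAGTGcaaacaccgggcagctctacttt
TRBV1/TRBJ2-2: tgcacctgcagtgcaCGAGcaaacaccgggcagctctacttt
TRAV12N-2-TRAJ35: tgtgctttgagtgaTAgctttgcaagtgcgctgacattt
TRAV9-2-TRAJ35: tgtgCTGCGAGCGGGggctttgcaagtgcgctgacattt
TRAV14D-3-DV8-TRAJ35: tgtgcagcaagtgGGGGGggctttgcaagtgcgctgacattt
TRAV3-3-TRAJ35: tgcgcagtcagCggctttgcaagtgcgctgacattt
germline TRAJ35: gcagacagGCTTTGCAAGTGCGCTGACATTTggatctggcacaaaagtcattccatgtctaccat

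TRAV2, the most upstream alpha V segment of those named here (chr14:52567198-52568051 on the plus strand of GRCm38), recurred in another form. A TRAV2 contig with TRAC but no J named was present in 67 TRB-only cells, 16 and 4 in Tet2KO NOD 1 and 2 and 37 and 10 in NOD 1 and 2. It was present in 93 paired cells, 24 and 5 in Tet2KO NOD 1 and 2 and 49 and 15 in NOD 1 and 2. These were 4.89% of TRB-only and 0.843% of paired cells. Of the 160 contigs 146 were 321 bases long, and all 160 were flagged high-confidence.

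These contigs followed the clone. Of 38 TRB-only cells whose TRB was mostly paired with TRAV2, 34 carried one, against 4 of 421 matched TRB-only cells of other clones. The TRBV20/TRBJ1-5 receptor of NOD 1 carried it in 12 of 12 TRB-only cells and 1 paired cell. The TRBV16/TRBJ2-7 receptor carried it in 9 of 9 TRB-only cells of Tet2KO NOD 1 and in 4 of 7 of NOD 1, while its paired cells carried a passing TRAV2-TRAJ7. None of 172 paired cells whose TRA was TRAV2 carried one, so in these cells the passing and the failed TRAV2 contig did not occur together.

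Other clones had failed contigs of other segments. In NOD 2 the TRBV19/TRBJ1-1 receptor held a TRAV12N-2-TRAJ49 contig that was not full-length in 6 of 6 TRB-only cells, with the CDR3 of the passing TRA of its 36 paired cells. TRAV12N-2 contigs that were not full-length were in 5.26% of TRB-only and 1.35% of paired cells overall. In NOD 1 the 18 paired cells with TRBV3/TRBJ1-3 carried a TRAV6D-6-TRAJ56 chain at a median of 5 UMIs. No contig with those 2 names was in its TRB-only cells, and 1 of them held a TRAV6D-6 contig named with TRAJ15, not full-length. A failed full-length TRAV7N-4-TRAJ56 contig was in 6 TRB-only and 8 paired cells of this receptor.

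TRD contigs were in 8 and 14 TRB-only cells of Tet2KO NOD 1 and 2 and in 35 and 18 of NOD 1 and 2. In paired cells the counts were 5 and 13 in Tet2KO NOD 1 and 2 and 95 and 22 in NOD 1 and 2. They made up 5.47% of TRB-only and 1.22% of paired cells. In TRB-only cells 74 of 77 such contigs joined a TRDV to a TRAJ segment, 0 had a TRDJ, 0 were productive, and 49 used TRDV1. The make-up was alike in paired cells, where 122 of 135 had a TRAJ, 0 had a TRDJ, 0 were productive, and 94 used TRDV1. A receptor of NOD 1 with TRBV12-2+TRBV13-2/TRBJ2-3, named after its values were seen, had 3 TRB-only cells, all with a TRDV1-TRAJ49 contig.

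**Figure D4:**
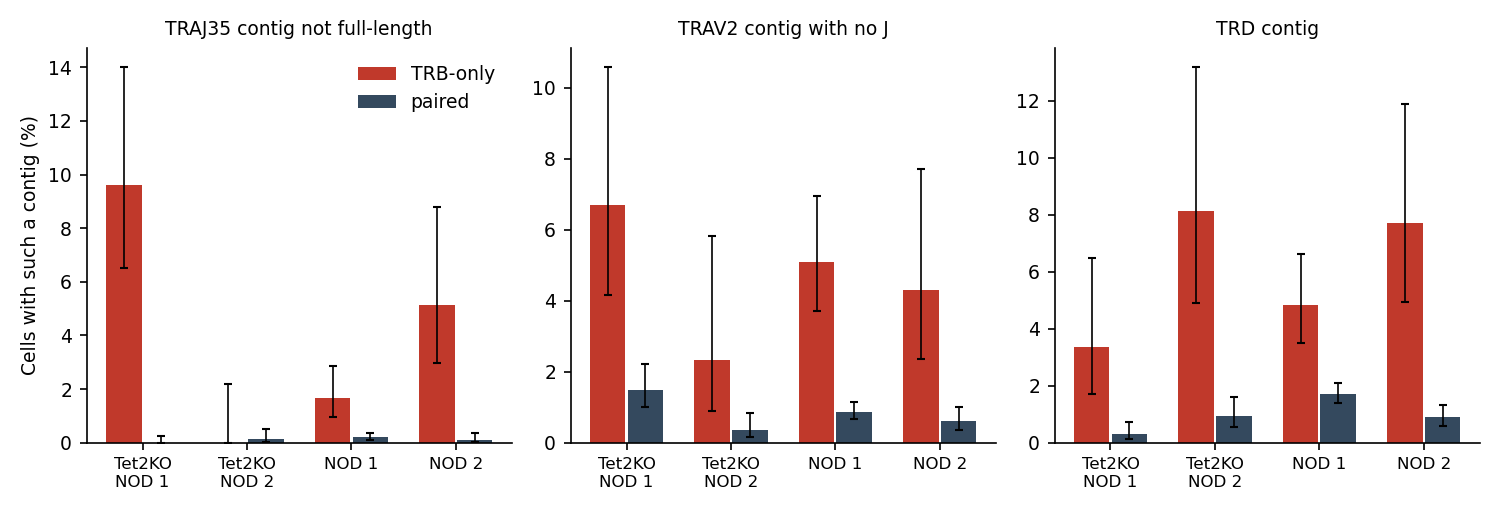
The share of TRB-only and of paired cells that held a TRAJ35 contig that was not full-length, a TRAV2 contig with no J named or a TRD contig, by library, with Wilson 95% intervals. The TRAJ35 share ran from 0 to 9.62% in TRB-only cells and was highest in Tet2KO NOD 1, and paired cells did not exceed 1.71% for any of the 3.

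TRB segments were then compared by counting each distinct TRB once per class and library. TRBV5 was lower in TRB-only cells. Its share was 6.94% and 9.72% in TRB-only cells of Tet2KO NOD 1 and 2 and 7.15% and 4.98% in those of NOD 1 and 2. In paired cells it was 9.53% and 10.8% in Tet2KO NOD 1 and 2 and 10.6% and 10.4% in NOD 1 and 2. TRB-only was lower in each of the 4 libraries. TRBV5 (chr6:41062332-41062803 on the plus strand of GRCm38) encodes the V beta 1 region. Its log2 fold change was -0.56 (SE 0.15, edgeR adjusted p = 0.0167).

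TRBV5 was the 1 segment called of 30 tested (3.33%). The call was lost without NOD 1 (log2 -0.56, adjusted p = 0.399), without NOD 2 (-0.47, adjusted p = 0.155), when each cell was counted once (-0.66, 0.0876) and with DESeq2 (-0.59, 0.215). It was also lost when TRB-only cells whose TRB was in a paired cell were left out (-0.41, adjusted p = 0.278), and without TRB-only cells that held a failed TRAJ35 or TRAV2 contig (-0.63, 0.233). The sign stayed the same in all of these.

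TRBJ2-7, the joining segment used most, made up 20.6% ± 1.24 of the distinct TRB of TRB-only cells and 20.3% of those of paired cells. TRBV12-2+TRBV13-2 made up 13.9% ± 2.54 and 11.3%, and TRBJ2-1 13.4% ± 3.01 and 10.3%. None of these 3 passed the test. TRBJ2-1 had a log2 fold change of 0.34 (SE 0.12, edgeR adjusted p = 0.209). Its share was 13.9% and 17.4% in TRB-only cells of Tet2KO NOD 1 and 2 and 11.8% and 10.4% in those of NOD 1 and 2. In paired cells it was 9.30% and 10.8% in Tet2KO NOD 1 and 2 and 9.37% and 11.6% in NOD 1 and 2. NOD 2 thus went the other way. TRBJ2-1 was called when TRB-only cells with any TRA contig were left out (log2 0.48, adjusted p = 0.0466).

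TRBV10, which the GRCm38 annotation lists as a V pseudogene, had a log2 fold change of 0.54 (SE 0.23, edgeR adjusted p = 0.254). It had 3.79% ± 0.36 of the distinct TRB of TRB-only cells and 2.79% of those of paired cells. TRBV13-3 and TRBV31, the V segment downstream of the constant genes, also had a larger share in each of the 4 libraries, at log2 0.26 and 0.22 (adjusted p = 0.618 and 0.657). TRBJ2-3 and TRBV19 had a smaller one in each, at log2 -0.32 and -0.21 (adjusted p = 0.254 and 0.657). TRBV13-1 made up 7.54% ± 1.38 of TRB-only and 8.38% of paired TRB, TRBJ2-5 12.5% ± 2.82 and 12.5%, and TRBV1 6.98% ± 2.63 and 6.74%.

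**Figure D5:**
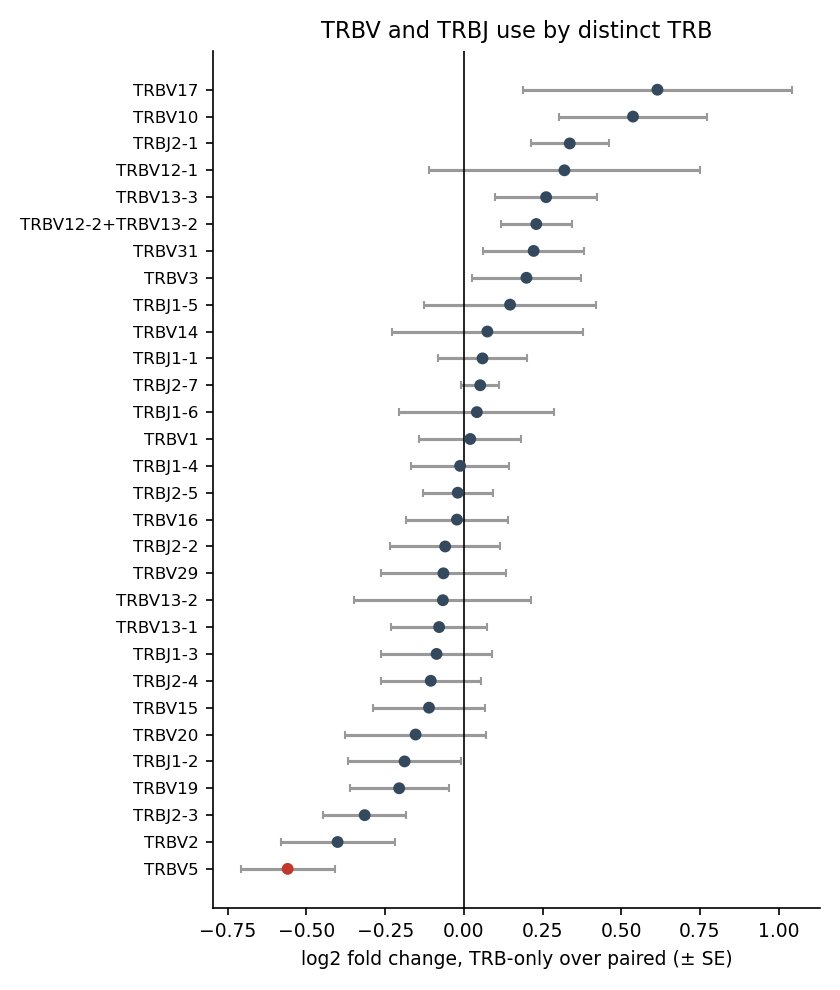
Log2 fold change of each of the 30 tested TRBV and TRBJ segments, TRB-only over paired, with its standard error, over distinct TRB in 4 libraries. TRBV5, in red at -0.56, was the 1 segment that passed the edgeR test.

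Among lists of segments, none of the 6 segments of the TRBJ1 cluster and none of the 6 of the TRBJ2 cluster passed the test, with median log2 fold changes of 0.01 and -0.04 beside -0.02 over all 30 segments. The list of the TRBV13 family, which encodes V beta 8, held 4 names. They were TRBV13-1, TRBV13-2, TRBV13-3 and the joined name TRBV12-2+TRBV13-2, which also names a TRBV12 segment. Of these 4 names 0 passed and the median was 0.08. The list of V beta segments of invariant NKT cells, an innate-like T cell subset, held the same 4 names among its 6. It had 0 of 6 called and a median of -0.02. TRBV12-1, the 1 segment tested of 3 sensitive to superantigens, had a log2 fold change of 0.32.

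In other properties of the TRB the classes differed by less than the spread between libraries. The mean CDR3 length was 42.05 ± 0.26 nucleotides in TRB-only cells and 42.01 ± 0.07 in paired cells (SD, n = 4), a difference of 0.04 ± 0.32 (exact sign-flip p = 0.75). TRBC1, the first constant gene, was named in 31.8% ± 3.67 of TRB-only cells and 32.1% ± 3.84 of paired cells (SD, n = 4, exact sign-flip p = 0.875). With a larger difference, a failed TRB contig was present in 8.85% ± 3.77 of TRB-only cells and 12.0% ± 0.90 of paired cells (SD, n = 4, exact sign-flip p = 0.25).

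For TRB clones with at least 2 paired cells, the partner TRA was taken as the most common among the paired cells, and cells with and without a TRA were counted under it. Clones paired with TRAV6-1 held 8 of the TRB-only cells of Tet2KO NOD 1 and 11 of those of Tet2KO NOD 2 (11.3% and 23.4%), and 2 and 0 of those of NOD 1 and 2 (1.01% and 0%). In paired cells they held 2.10% and 4.32% in Tet2KO NOD 1 and 2 and 0.702% and 0.286% in NOD 1 and 2. These are counts of cells and not of clones. Of the 11 TRB-only cells of Tet2KO NOD 2, 6 had the TRBV31/TRBJ2-5 receptor, whose 13 paired cells carried TRAV6-1-TRAJ9. Of 28 segments tested 0 were called (0%), by edgeR and by DESeq2, and 4 had an unadjusted p under 0.05 in edgeR and 5 in DESeq2.

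The 3 with the smallest p above 0 were TRAV6-1 (log2 1.85, SE 0.75), TRAV12N-2 (1.59, SE 0.68) and TRAV2 (1.43, SE 0.65), each with an edgeR adjusted p = 0.267. Their paired columns alone did not pass the filter on low counts. Each was kept only through TRB-only columns in which it was high, so nothing is read from the sign above 0. Below 0 the 3 with the smallest p were TRAV13-1, TRAV5N-4 and TRAV10D. These 3 passed the filter on low counts only through the paired columns, so nothing is read from their sign. TRAV13-1 partners held 0, 0, 3 and 0 TRB-only cells and 23, 22, 99 and 24 paired cells in Tet2KO NOD 1, Tet2KO NOD 2, NOD 1 and NOD 2. TRAV5N-4 partners held 1, 0, 8 and 0 TRB-only cells and 26, 36, 149 and 35 paired cells in the same order of libraries. TRAV10D partners held 2, 1, 2 and 0 TRB-only cells and 21, 26, 99 and 32 paired cells. TRAJ7 was called without Tet2KO NOD 2 (log2 2.47, adjusted p = 0.0112), and its cells include the TRBV16/TRBJ2-7 receptor paired with TRAV2-TRAJ7.

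Between genotypes, none of 22 TRBV and TRBJ segments of TRB-only cells was called (0%), by edgeR or by DESeq2, and 0 had an unadjusted p under 0.05 in either. The 3 with the smallest p were TRBJ2-1 (log2 0.43, SE 0.18, Tet2KO NOD over NOD), TRBV19 (-0.70, SE 0.47) and TRBV1 (0.53, SE 0.44), each at an adjusted p = 0.997. TRBV19 had 3.47% and 6.94% of distinct TRB in Tet2KO NOD 1 and 2 and 7.82% and 9.45% in NOD 1 and 2. For 6 of the 22 segments the genotypes did not overlap. With 2 against 2 libraries, random labels separate a segment with a probability of 0.333, so nothing is read from this count. When each cell was counted once TRBJ2-1 was called (log2 0.81, adjusted p = 0.0083), a count that holds the 17 cells of the TRBV13-1/TRBJ2-1 receptor of Tet2KO NOD 1.

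Whether the difference between TRB-only and paired cells was itself different between genotypes was tested as an interaction. None of 30 segments was called (0%), by edgeR or by DESeq2, and 0 had an unadjusted p under 0.05 in either. The smallest p were for TRBV19 (log2 -0.66, SE 0.39), TRBJ2-1 (0.43, SE 0.28) and TRBV2 (0.73, SE 0.44), each at an edgeR adjusted p = 0.987. Among other values of TRB-only cells, median TRB UMIs averaged 8.5 ± 0.71 in Tet2KO NOD and 8 ± 1.41 in NOD (SD, n = 2 each, exact permutation p = 1). A failed TRA contig was held by 39.5% ± 1.57 in Tet2KO NOD and 43.4% ± 5.93 in NOD (exact permutation p = 0.667).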

How the data were processed

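Per the file headers, the deposited contig tables give whole-number counts of reads and UMIs per contig, its length in bases, chain, segments, CDR3 and flags. Cell Ranger 7.0.1 and GRCm38 (mm10) are named per the submitters' processing notes; the sources used here do not name its V(D)J segment set. Near-identical segment copies are uncertain. Doublets were treated by leaving out cells with over 1 TRB.

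The members and lists were chosen with earlier results of these data known. Each library was the replicate, and cells were never tested. Single values were compared by exact permutation of libraries or exact sign-flip of within-library differences. Distinct TRB per segment were tested with edgeR 4.0.16 (quasi-likelihood, library as a block, R 4.3.3), with the number of distinct TRB as library size, segments kept at 10 or more in 4 or more columns (2 for genotype), and Benjamini-Hochberg adjustment at 0.05; partner segments used counts of cells. Standard errors are approximate, fold change over the square root of F, and the p-values need not follow from them. The common dispersion, the estimated spread beyond counting error, was 9.8e-05 in the class, genotype and interaction fits. It was 0.15 in the partner fit. DESeq2 1.42.0 was an alternative. The fits were also run on simulated counts with no spread beyond counting error and with changes larger than those of the TRB segments here. That run cannot show how the fits perform at the fold changes reported. Intervals are Wilson 95%; a count of 0 allows 3 counts. Thinned values are means of 200 draws. Alternatives changed the TRB-only definition, UMI minimum, counting, normalization and filter, and left out each library.

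Named segments were those passing a test, the 5 TRBV and 3 TRBJ with the highest TRB-only share, plus, among segments of one sign in all libraries, the 3 raised and 3 lowered ones of smallest p; for genotype and interaction the 3 with the smallest p; for partners those passing plus 3 each way of smallest p. Named TRB were the 2 with the most TRB-only cells in each library, the 3 with the most and no paired cell, and the 3 with the most cells found in over 1 library. The reference positions and TRAJ35 sequence are from GRCm38.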

Additional observations from a re-analysis of the deposited data

How the results depend on the processing

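The differences in TRB UMIs and in the share of cells matched to a paired cell kept their direction when each library was left out and in every other setting run, except that the matched share reversed to 8.14 percentage points when each distinct TRB was counted once. In that count the shares of the classes are unlike, so nothing is read from the reversal. The CDR3 length difference, 0.04 nucleotides, reversed to -0.046 for TRB-only cells with no TRA contig of any kind, and was -0.095 to 0.17 on leaving out single libraries. The number of TRBV and TRBJ segments called, 1, was 2 for TRB-only cells with no TRA contig of any kind, and 0 when each cell was counted once, without TRB-only cells whose TRB was in a paired cell, with DESeq2, and, in a setting chosen after seeing the data, without TRB-only cells with a failed TRAJ35 or TRAV2 contig; it was 0 to 1 when each library was left out. Log2 fold changes near 0 changed sign: on leaving out single libraries TRBV13-1 was -0.25 to 0.0058, TRBV1 -0.12 to 0.14, TRBJ2-7 -0.0080 to 0.074 and TRBJ2-5 -0.13 to 0.066. TRBV13-1 was 0.12 with each cell counted once. TRBV1 was -0.023 and TRBJ2-7 -0.064 without TRB in paired cells. TRBV1 was -0.011 with TMM, and with DESeq2 TRBV1 was -0.018 and TRBJ2-7 -0.0067. For TRB-only cells with no TRA contig TRBJ2-7 was -0.033 and TRBJ2-5 0.0051. Between genotypes, 1 segment was called when each cell was counted once. Partner segments called, 0, numbered 1 with no filter (TRAJ7, log2 2.30) and 0 to 1 when each library was left out; counting each TRB clone once left 1 segment to test. The causes of these changes were not tested. In the fit with set as replicate block, 0 of 22 genotype segments were called. Within sets 1 and 2 the genotype difference in TRB-only share was 1.59 and 2.27 points and in matched share 4.33 and 7.85, with block means of 1.93 and 6.09. Deviations of libraries with the same set number correlated at 0.25 over 22 segments in 2 pairs, too few to pair the samples. Depth limits rare contigs: in Tet2KO NOD 2, 0 of 172 TRB-only cells with a TRAJ35 contig that was not full-length allows up to 1.74%.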
